A study of Mus musculus with 6 samples.

Results

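The genes of the proteasome were followed in a sorted stem cell fraction of the mouse pituitary: the subunits of the 20S core and the 19S cap, the interferon-inducible subunits that can replace some of them, the activators, an inhibitor and the chaperones that help to build the particle. Members were all genes whose name in the array annotation begins with Psma, Psmb, Psmc, Psmd or Psme and a number, together with Psmf1, Psmg1, Psmg2 and Psmg3. The rule found 47 genes with 60 probes among 30397 genes or unnamed transcripts on the array, and 45 of the 47 gave a signal clearly above background on 2 or more of the 6 arrays and entered the test of 21073 genes. RNA came from the side population of the anterior pituitary of female mice, that is, cells that pump out Hoechst dye, with those of high Sca1 surface level gated out. Control mice had the genotype -/iDTR and carry a diphtheria toxin receptor gene that needs Cre to become active. GHCre/iDTR mice carry in addition a Cre driven by growth hormone, which opens growth hormone cells to the toxin. Toxin was dosed 2 times daily with 4 ng for each g of body weight in both genotypes, so the controls were exposed to toxin as well. Toxin was given for 3 days (2 control and 2 GHCre arrays) or 10 days (1 array of each genotype). Strain, age and the number of mice behind each array are not given in the sources used here, and the p-values below measure only the spread between these samples.

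The proteasome is the main machine by which cells break down ubiquitin-tagged proteins. Its core is a barrel of alpha and beta rings, of which the beta subunits Psmb5, Psmb6 and Psmb7 carry the cutting sites, and the 19S cap recognises, unfolds and feeds in the substrate. Interferon induces, and immune cells carry, Psmb8, Psmb9 and Psmb10, which take the places of Psmb5, Psmb6 and Psmb7 in newly built cores (the immunoproteasome), together with Psme1 and Psme2, whose products form the PA28 activator ring; both changes alter the peptides that reach MHC class I molecules.

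Levels are log2 signal relative to the 75th percentile of the same array, and differences are on the same log2 scale with the standard error (SE) of a limma fit to all 6 arrays. A level reflects probe and amplification as well as RNA, so levels are compared between arrays and never between genes. The 75th percentile of signal ran from 186.1 to 298.5 and the share of probes above background from 53.8% to 65.7%, lowest on replicate 1 of the 3 day controls in both. Slide 1 held replicate 1 and slide 3 replicate 2 of both 3 day groups, so both slides allow a comparison within a slide. The 10 day control was alone on slide 2 and the 10 day GHCre array lay on slide 3, which means that after 10 days the effects of slide and of genotype cannot be told apart. Several markers of the sorted cells were measured, among them Sox9 and Abcg2, but Sox2 was not above background on any array. In bulk RNA, fewer cells of a type and less RNA per cell cannot be told apart.

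The inducible genes are the ones on which the comparison turns, and the 60-base sequences that the array used for the immunoproteasome beta subunits are shown because every value below is the signal of such a stretch and of no other part of the transcript. The array files give their positions on mm9.
Psmb8 (chr17:34337771-34337830, plus strand): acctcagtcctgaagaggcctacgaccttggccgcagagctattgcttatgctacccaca
Psmb9 (chr17:34319174-34319233, minus strand): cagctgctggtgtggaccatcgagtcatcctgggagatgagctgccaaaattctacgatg
Psmb10 (chr8:108459677-108459736, minus strand): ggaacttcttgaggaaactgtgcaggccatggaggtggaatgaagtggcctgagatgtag
The Psmb8 and Psmb9 probes start 18597 bases apart on chromosome 17, and those of Psme1 and Psme2 start 8694 bases apart on chromosome 14.

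After 3 days of toxin, 3 of the 5 inducible genes (Psmb8, Psmb10 and Psme1) had a higher mean in the GHCre side population and 2 (Psmb9 and Psme2) a slightly lower one, and none passed the test. The differences ran from -0.11 to 0.59 with a median of 0.45. Psmb8, the subunit that replaces Psmb5, stood at 2.17 and 1.82 on the control arrays and at 2.90 and 2.21 on the GHCre arrays. Both GHCre values lay above both controls, although the lower GHCre array was only just above the higher control, and the difference was 0.56 with an SE of 0.48 (limma adjusted p = 0.87). Psmb10, which replaces Psmb7, measured 1.11 and 1.37 on the control arrays against 2.06 and 1.61 on the GHCre arrays. Again the groups did not overlap, with a difference of 0.59 (SE 0.43, limma adjusted p = 0.87). Within slide 1 and slide 3 the difference was 0.73 and 0.40 for Psmb8 and 0.95 and 0.24 for Psmb10. With each 3 day array left out in turn, the difference ran from 0.22 to 0.91 for Psmb8 and from 0.37 to 0.82 for Psmb10.

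Psmb9, the partner gene of Psmb8 that replaces Psmb6, gave 3.63 and 1.48 on the control arrays and 2.82 and 2.18 on the GHCre arrays. The 2 controls differed from each other by more than any pair of arrays across genotypes, so the mean difference of -0.06 had an SE of 0.88. Within slide 1 the difference was -0.81 and within slide 3 it was 0.69. Psme1, the alpha chain of PA28, stood at 3.25 and 2.11 on the control arrays and at 3.1 and 3.16 on the GHCre arrays, a difference of 0.45 (SE 0.56) that came from slide 3 (1.05) and not from slide 1 (-0.15). Psme2, the beta chain, measured 2.41 and 1.24 on the control arrays and 2.14 and 1.28 on the GHCre arrays, which gave -0.11 (SE 0.65). In both groups replicate 1 was the high array.

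The 3 cutting subunits that the inducible ones replace were read the same way. Psmb5 stood at 3.49 and 3.24 on the control arrays and at 3.13 and 3.05 on the GHCre arrays, so that both GHCre values were lower, by 0.28 on average (difference -0.28, SE 0.41). A different Psmb5 probe gave 1.51 and 1.76 on the control arrays and 2.17 and 1.77 on the GHCre arrays, which is a difference in the opposite direction (0.33). Psmb6 measured 4.55 and 3.66 against 4.48 and 4.21, and Psmb7 4.04 and 3.46 against 3.68 and 4.22, with differences of 0.24 (SE 0.51) and 0.20 (SE 0.48) and overlapping groups in both. In the plot of the inducible genes beside Psmb5, Psmb6 and Psmb7, the genotypes do not overlap after 3 days for Psmb8, Psmb10 and Psmb5, and for each of these the gap between the nearest arrays is smaller than the larger distance between replicates.

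**Figure D1:**
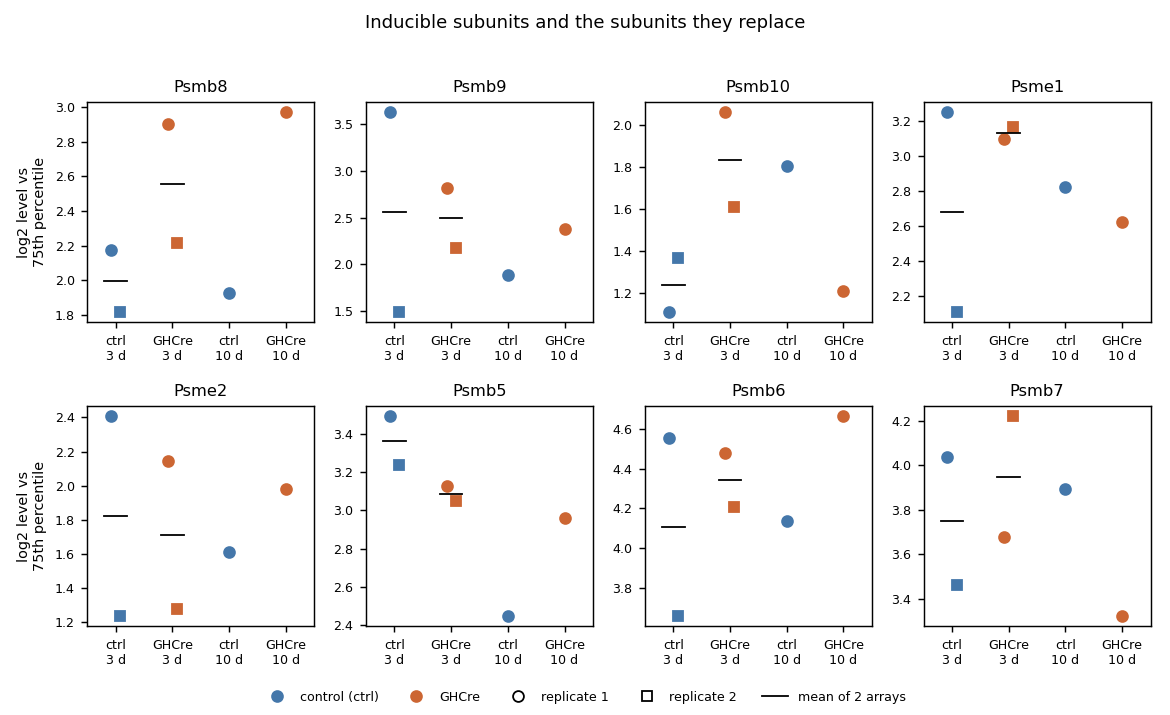
Log2 level of the 5 inducible genes and of Psmb5, Psmb6 and Psmb7 relative to the 75th percentile of each array (vertical axis, its own range in each panel), by genotype and day (horizontal axis), with 1 point per array, squares for replicate 2 and a line at the mean of 2 arrays. Psmb8 and Psmb10 are higher on both 3 day GHCre arrays than on both controls, whereas the Psmb9 controls lie at 3.63 and 1.48, on either side of the GHCre arrays.

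Set against the 31 constitutive core and cap subunits, the inducible genes had the higher median difference after 3 days, 0.45 against 0.02, a gap of 0.43; the median of all genes tested was -0.04 and that of Psmb5, Psmb6 and Psmb7 was 0.20. The spread between replicates was read on another measure, so it does not stand on equal terms with this gap of median differences. Measured on each array as a median distance from every gene's own mean of 6 arrays, the inducible genes stood at 0.40 and -0.54 on the 3 day controls and at 0.42 and -0.12 on the GHCre arrays, a standard deviation between replicates of 0.55 (pooled over 2 groups of 2). Constitutive subunits moved far less, with 0.04 and -0.08 on the controls, 0.09 and 0.16 on the GHCre arrays and a standard deviation of 0.07. The inducible minus the constitutive median on each array had a standard deviation of 0.51. On this measure the genotypes differed by less than the gap of 0.43, in the inducible genes alone and after the constitutive median was taken off. The median of the inducible genes was -0.15 within slide 1 and 0.40 within slide 3, and without replicate 2 of the 3 day controls it was -0.12, which turns the gap to -0.14.

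**Figure D2:**
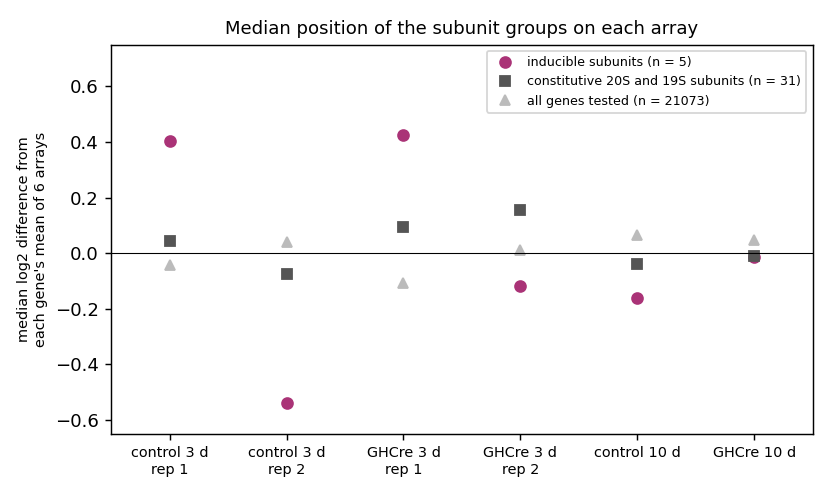
Median log2 difference from each gene's mean of 6 arrays (vertical axis) on each array (horizontal axis) for the 5 inducible genes, the 31 constitutive subunits and all 21073 genes tested. The inducible genes span 0.40 to -0.54 withon the 3 day controls alone, while the constitutive subunits stay between -0.08 and 0.16 on every array.

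Counted over all 45 tested members, 23 were higher and 22 lower in GHCre after 3 days, with a median difference of 0.00 and no member past an adjusted p of 0.05. That count stands beside 0% of all 21073 genes, so the fit called nothing anywhere; the lowest adjusted p was 0.65 over all genes and 0.69 among members. Non-overlapping groups were found for 11 members in the higher and 7 in the lower direction, that is, in 18 of 45, beside 16.6% and 21.3% of all genes. At an unadjusted p under 0.05 there were 2 members, Psmd13 and Psmg3, both higher, where the background was 6.6% of genes. Between replicates, members had a median residual standard deviation of 0.39, constitutive subunits 0.34 and the inducible ones 0.57, against 0.59 for all genes. Of the 45 tested members, 44 were above background on all 6 arrays, beside 14791 of the 21073 genes. Genes of equal level were not compared.

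The alpha ring, the outer gate of the core, was nearly even across arrays. Of its 7 tested genes, 6 had a range over the 6 arrays below 1, and Psma7 varied least of all members, by 0.28 over all 6 arrays. Psma1 was the only alpha gene whose groups did not overlap after 3 days, with 2.59 and 1.71 on the control arrays and 2.82 and 2.91 on the GHCre arrays. Its difference of 0.71 (SE 0.50) was 0.23 within slide 1 and 1.20 within slide 3. The ring as a whole had 4 genes higher and 3 lower, with a median of 0.06.

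Among the constitutive beta subunits, Psmb2 had the largest difference. This gene of a non-cutting position in the ring measured 1.84 and 2.25 on the control arrays and 3.48 and 3.01 on the GHCre arrays. The GHCre arrays exceeded both controls on either slide, by 1.64 on slide 1 and 0.76 on slide 3, and the difference was 1.20 (SE 0.45, limma unadjusted p = 0.056, adjusted p = 0.76). The remaining 6 beta genes lay between -0.28 and 0.24.

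In the cap, the 6 ATPases that unfold the substrate had 2 genes higher and 4 lower, with a median of -0.03 and with Psmc3 highest at 0.97 (SE 0.55). The 11 non-ATPase subunits had 7 higher and 4 lower with a median of 0.12. Psmd13, a structural subunit of the cap lid, had the lowest p of any member after 3 days. It measured -0.32 and -0.42 on the control arrays and 1.57 and 1.19 on the GHCre arrays, values that do not come near each other. The difference of 1.75 (SE 0.42, limma unadjusted p = 0.014, adjusted p = 0.69) was of similar size within slide 1 (1.89) and slide 3 (1.61), and the range with each array left out in turn was 1.56 to 1.94. Its probe lies on chromosome 7 (mm9, chr7:148084248-148084307, plus strand) and is shown because it reports the clearest separation of the genotypes in the group.
Psmd13: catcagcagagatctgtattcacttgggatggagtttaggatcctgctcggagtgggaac

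The chaperones of the core had no common direction. Psmg3, 1 of the proteins that guide the alpha ring together, stood at -2.00 and -1.39 on the control arrays and at -0.41 and -0.15 on the GHCre arrays. Both GHCre arrays were higher, by 1.59 on slide 1 and 1.24 on slide 3 (difference 1.41, SE 0.46, limma unadjusted p = 0.036, adjusted p = 0.74). Psmg2, which pairs with Psmg1, measured -5.91 and -3.74 on the control arrays, of which the first was below background, and -3.60 and -1.66 on the GHCre arrays; the difference of 2.19 had an SE of 1.10 and ran from 1.11 to 3.28 with each array left out in turn. Psmg1 gave 0.95 and -0.14 on the control arrays and -1.42 and 1.24 on the GHCre arrays, so the GHCre replicates differed from each other by more than the genotypes did (difference -0.50, SE 1.09).

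The chaperones of the cap base were lower in all 3 cases without passing the test. Psmd5 measured -0.38 and -0.34 on the control arrays and -0.88 and -0.70 on the GHCre arrays, a small difference of -0.43 (SE 0.40) with no overlap. Psmd9 stood at -0.67 and -1.25 against -1.15 and -1.05, which overlap. Its difference was -0.13 (SE 0.45), and a further Psmd9 probe gave 0.81. Psmd10, the oncoprotein gankyrin, was lower in both GHCre arrays and is described with the 10 day arrays below.

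Of the activators outside PA28 alpha and beta, Psme3, the nuclear gamma chain, stood at 8.05 and 7.55 on the control arrays and at 7.32 and 7.22 on the GHCre arrays, a difference of -0.53 (SE 0.43) without overlap. The letters of its only probe are largely repeats of TG and CA, so its assignment to Psme3 alone is uncertain. Psme4, the PA200 cap of nuclear proteasomes, gave -1.06 and 0.50 against 0.55 and -0.71 and showed no separation (difference 0.20, SE 0.81). Psmf1, which encodes the inhibitor protein PI31, had the clearest lower value of all members after 3 days. Its levels were -1.39 and -1.43 on the control arrays and -2.67 and -2.32 on the GHCre arrays, well apart on both slides (-1.27 and -0.89). The difference was -1.08 (SE 0.41, limma unadjusted p = 0.058, adjusted p = 0.76).

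**Figure D3:**
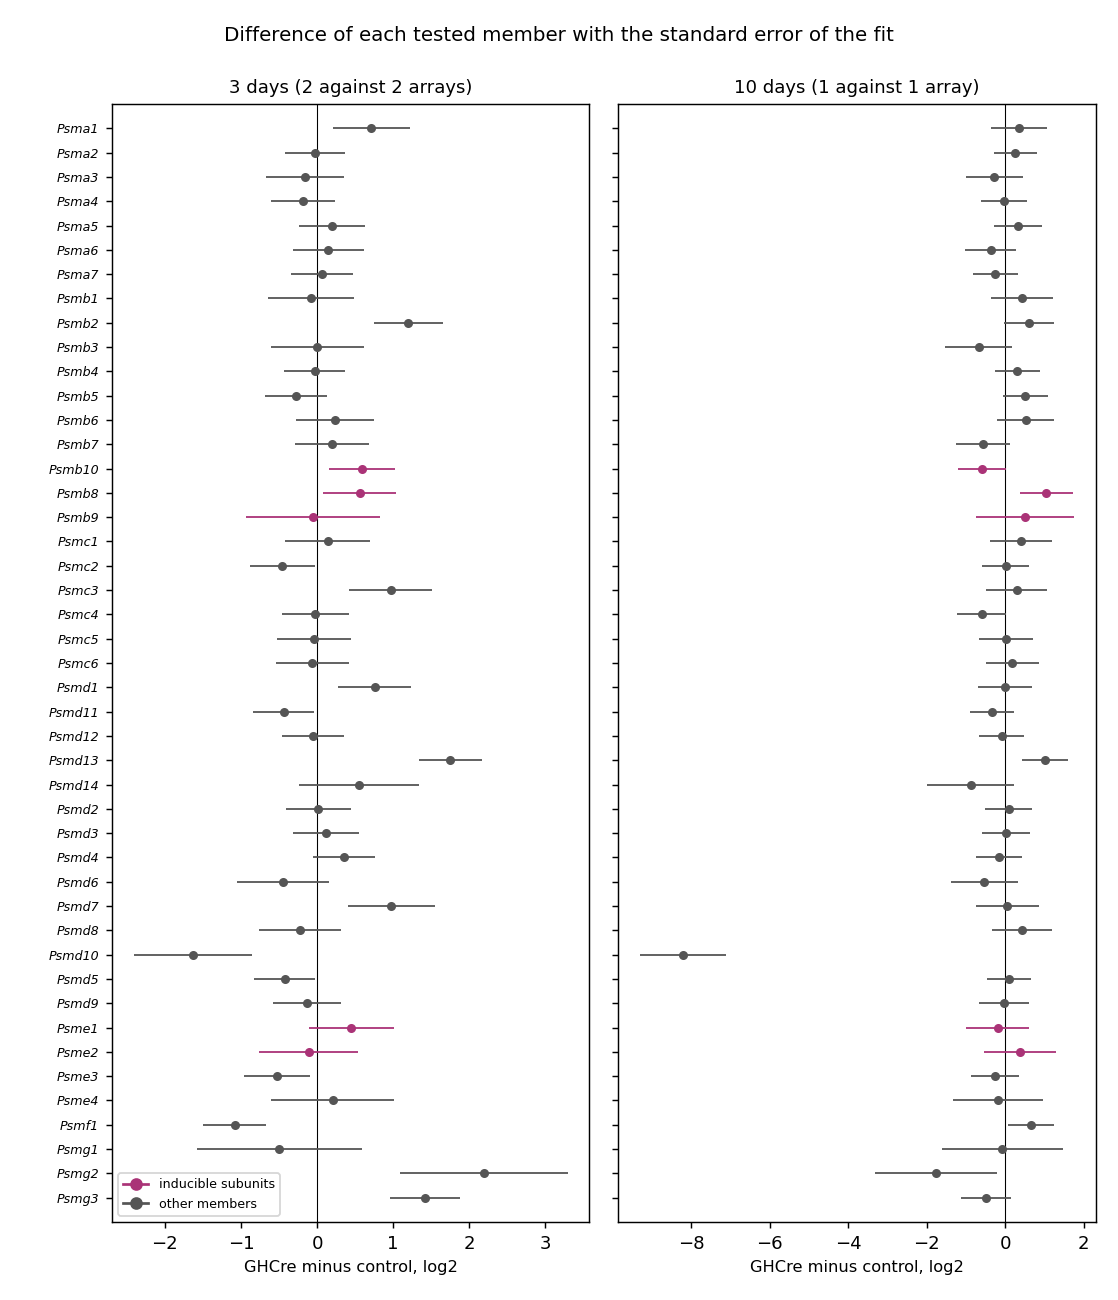
Difference of GHCre minus control (horizontal axis, log2) for each of the 45 tested members after 3 days (left) and 10 days (right, own scale), with the SE of the fit as a bar and the 5 inducible genes in a second colour. After 3 days Psmd13 at 1.75 and Psmg3 at 1.41 lie farthest above 0 in units of their SE and Psmf1 at -1.08 farthest below, and after 10 days Psmd10 at -8.21 lies apart from every other member.

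After 10 days each genotype had 1 array, so the values have no replicate check of their own, and the SE of the fit assumes that these arrays vary like those of 3 days. Psmb8 stood at 1.93 (control) and 2.97 (GHCre), a difference of 1.04 (SE 0.68) and the highest of the 45 tested members. Psmb9 measured 1.88 and 2.38 (difference 0.50, SE 1.25) and Psme2 1.61 and 1.98 (difference 0.37, SE 0.91), whereas Psmb10 with 1.80 and 1.21 (difference -0.59, SE 0.61) and Psme1 with 2.82 and 2.63 (difference -0.20, SE 0.80) were lower in GHCre. The inducible genes thus had 3 higher and 2 lower, as after 3 days but not the same 3: Psmb10 and Psme1 had the opposite sign, and so had Psmb9 and Psme2.

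The counterparts differed less than Psmb8 and about as much as Psmb9 and Psmb10. Psmb5 stood at 2.44 (control) and 2.96 (GHCre), Psmb6 at 4.14 and 4.66, and Psmb7 at 3.89 and 3.32. Their differences were 0.51, 0.53 and -0.57, with a median of 0.51 against 0.37 for the inducible genes, 0.03 for the 31 constitutive subunits and 0.00 for all genes. The gap of inducible over constitutive subunits was 0.34, and with all probes of a gene averaged it became -0.22. The inducible median of 0.37 is the value of the Psme2 probe used, and with all probes averaged it was -0.20.

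Over the 45 members, 23 were higher and 22 lower after 10 days, with a median of 0.01. Psmb8 and Psmd13 (0.02 and 1.04, a difference of 1.02 with an SE of 0.59) were at least 2-fold higher in GHCre, and Psmd10 and Psmg2 at least 2-fold lower, which makes 2 of 45 in each direction beside 12.7% and 14.1% of all genes. Psmg2 measured -1.42 and -3.17 and Psmg3 -1.88 and -2.37, so both were lower in GHCre after 10 days, where they had been higher after 3. Psmf1 measured -1.86 and -1.21, again turned against its 3 day difference. In the limma fit 0 members and 0% of genes passed an adjusted p of 0.05 (lowest value 1.00), and at an unadjusted p under 0.05 there was 1 member, Psmd10, beside 3.03% of genes.

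Psmd10 gave the lowest difference of all 21073 genes tested after 10 days. Its probe stood at -1.10 and 0.51 on the 3 day controls, -2.43 and -1.43 on the 3 day GHCre arrays, 5.43 on the 10 day control and -2.79 on the 10 day GHCre array. The 10 day control is thus the array that stands apart, by 4.91 from the next highest array. The difference was -1.63 (SE 0.78) after 3 days, from -2.44 to -0.83 with each 3 day array left out in turn, and -8.21 (SE 1.10, limma unadjusted p = 0.0017, adjusted p = 1.00) after 10 days. The change in the difference was -6.58 (SE 1.34, limma unadjusted p = 0.0079, adjusted p = 1.00).

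A different Psmd10 probe did not show the high value. It measured -1.47 and -3.25 on the 3 day controls, -3.13 and -4.29 on the 3 day GHCre arrays, -3.08 on the 10 day control and -6.23 on the 10 day GHCre array, and was above background on 4 of the 6, all but replicate 2 of the 3 day GHCre arrays and the 10 day GHCre array. The 10 day control was at least 2.27-fold above the 10 day GHCre array, whose level is set at its lowest signal above background. On this probe the 10 day control lay within the range of the 3 day arrays. The first probe, whose annotated position spans 2897 bases and therefore joins parts of the transcript that lie apart in the genome (mm9, chrX:137483840-137486736, minus strand), is shown because the largest difference rests on it alone.
Psmd10: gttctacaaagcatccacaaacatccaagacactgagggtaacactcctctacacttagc
Hormone genes moved on the same array: the mean level of the 7 markers of hormone cells was 4.20 on the 10 day control, 0.57 on the 10 day GHCre array and between 0.65 and 2.81 on the 3 day arrays, and Gh stood at 7.86 and 2.21 after 10 days. Their summed linear level, to which the signal of the Prl probe gave the largest part, was 1756 and 1812 on these arrays, and Fshb was not above background on any array. The part of these cells in the Psmd10 value was not tested.

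**Figure D4:**
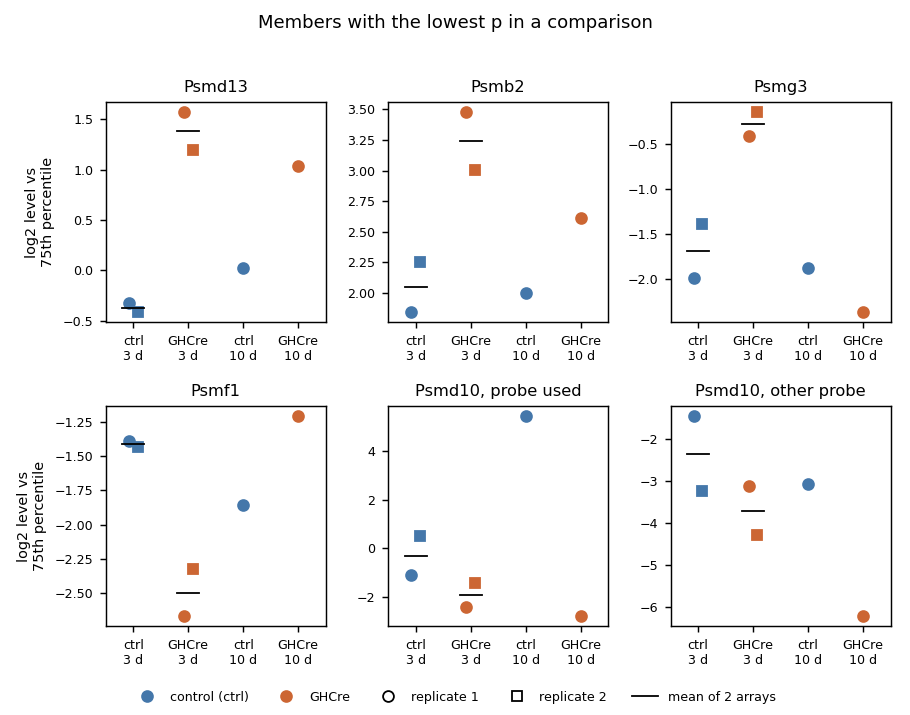
Log2 level relative to the 75th percentile of each array (vertical axis, own range in each panel) by genotype and day (horizontal axis) for the members of lowest p, with 1 point per array, squares for replicate 2 and a line at the mean of 2 arrays. Psmd13, Psmb2, Psmg3 and Psmf1 separate the genotypes after 3 days; the 10 day control is at 5.43 with the Psmd10 probe used and at -3.08 with the other probe.

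Whether the genotype difference itself changed between 3 and 10 days was tested directly, and 0 members and 0% of genes passed (limma, lowest adjusted p 1.00). Psmd10 was the 1 member at an unadjusted p under 0.05, against 3.96% of genes. Next came the genes that turned: Psmf1 went from -1.08 to 0.65, a change of 1.73 (SE 0.71, limma unadjusted p = 0.072), and Psmg3 from 1.41 to -0.49, a change of -1.90 (SE 0.79, limma unadjusted p = 0.074). For the inducible genes the median change was 0.48 and for the constitutive subunits -0.09, with 0.03 for all genes. Without replicate 1 of the 3 day controls the inducible median became -0.51. The change rests on the 10 day control, which lay alone on its slide, so it cannot be told apart from an effect of slide.

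Time within a genotype was compared as 10 minus 3 days. No member and 0% of genes passed on the control arrays, nor in GHCre, where again 0% of genes passed (limma, lowest adjusted p 1.00 in both). At an unadjusted p under 0.05 there was 1 member on the control arrays, Psmd10, higher by 5.72 (SE 0.95) beside 4.06% of genes, and 1 in GHCre, Psmg3, lower with -2.09 (SE 0.56) beside 4.03% of genes. Inducible and constitutive subunits had medians of -0.07 and -0.03 on the control arrays and of -0.12 and -0.13 in GHCre, against 0.09 and 0.11 for all genes. The 10 day control lay alone on its slide, so on the control arrays time and slide cannot be told apart. In GHCre a comparison within slide 3 was possible, and there Psmg3 differed by -2.22.

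**Figure D5:**
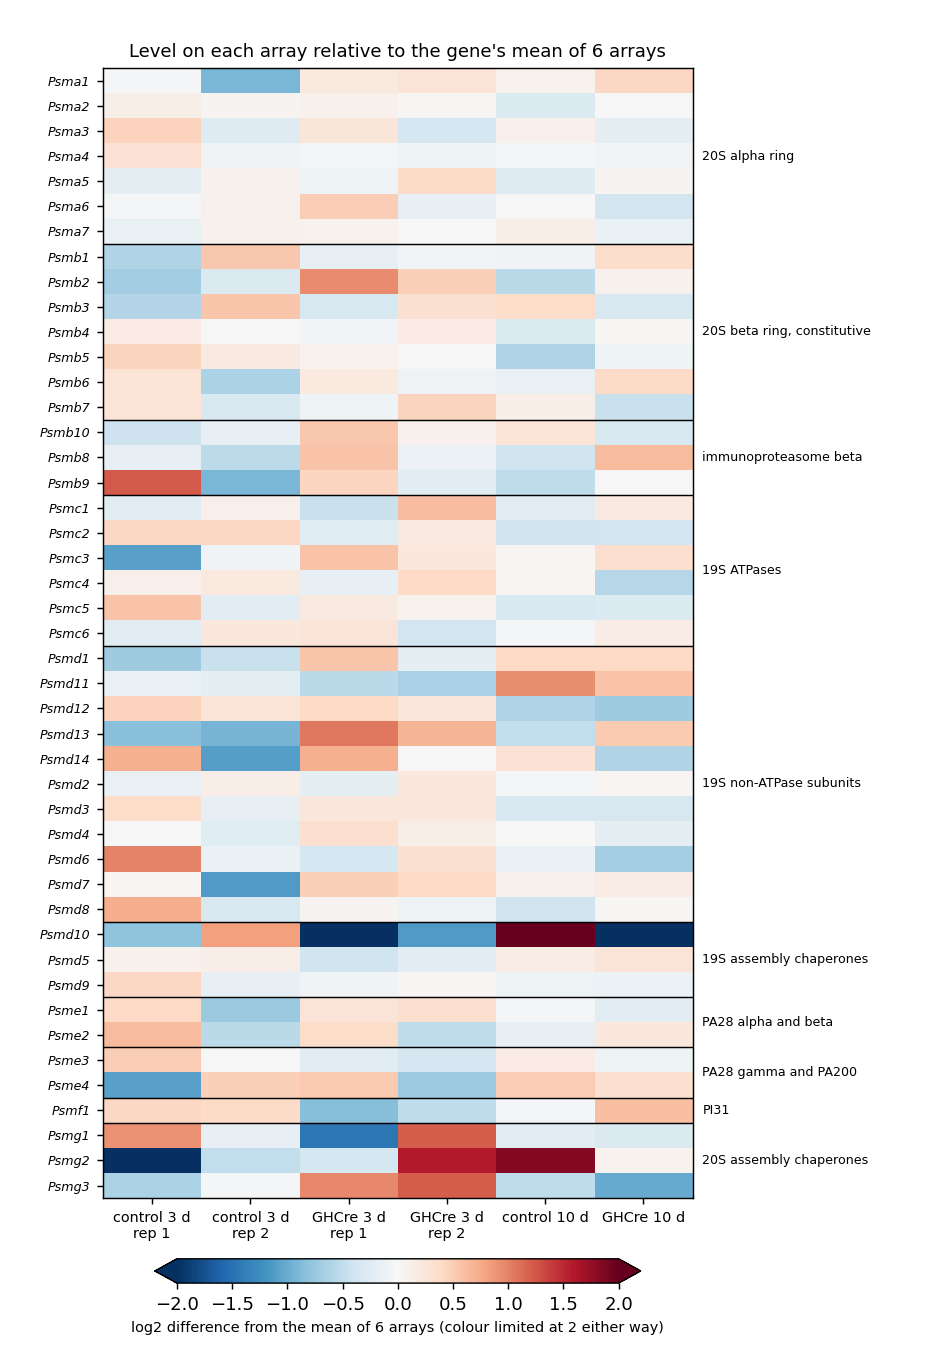
Level of each of the 45 tested members (rows, ordered by role) on each array (columns) as a log2 difference from the gene's mean of 6 arrays, with the colour limited at -2 and 2. The alpha ring is nearly even across arrays, and the cells at either end of the colour scale belong to Psmd10 and Psmg2.

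Several members were read by more than 1 probe, 12 in all, and the probes did not always give the same sign. After 3 days they disagreed for 5 genes (Psmb5, Psmb9, Psmd9, Psme2 and Psme4) and after 10 days for 4 (Psmc2, Psmc3, Psme2 and Psmg1). For Psmb9 the other probe was above background on only 2 arrays, with -5.30 and -3.93 on the 3 day controls, -2.50 and -4.61 on the 3 day GHCre arrays, and -5.85 and -4.34 after 10 days. For Psme2 the 3 probes gave -0.11, 0.71 and -1.65 after 3 days and 0.37, -0.34 and -0.90 after 10 days. The probe with 0.71 measured 1.58 and 1.09 on the control arrays and 2.15 and 1.94 on the GHCre arrays, while the one with -1.65 measured -0.13 and 0.10 against -2.21 and -1.13, and both separated the genotypes, in opposite directions. The annotated position of the latter spans 219297 bases, so that its assignment to Psme2 alone is uncertain. No direction for Psme2 holds across its probes.

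Members outside the test were Psmb11, the thymus-specific beta subunit, which was not above background on any array, and Psma8, the testis alpha subunit. Psma8 was above background on the 10 day GHCre array alone, at -3.54, where it was at least 1.31-fold higher than in the 10 day control, whose level is set here at the lowest signal well above background on that array. No member probe was saturated.

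The neighbouring lists give the setting of these values. Of 27 tested genes for factors that bind or regulate the proteasome, 15 were higher and 12 lower after 3 days with a median of 0.06. Fbxo7, a ubiquitin ligase component, read -2.77 and -1.84 on the control arrays and 0.39 and -0.90 on the GHCre arrays (difference 2.05, SE 0.68). Ube3c, a ligase that works at the proteasome, was below background on both controls and at least 3.45-fold higher in GHCre. Nfe2l2, a transcription factor of proteasome genes under oxidative stress, gave -1.06 and 0.65 against 1.63 and 1.13 (difference 1.59, SE 0.74), and Ecpas, which tethers the cap to the core, was lower by 1.92 (difference -1.92, SE 0.98). At an unadjusted p under 0.05 there were 2 of the 27, both higher, beside the 6.6% of all genes, and none passed the adjusted threshold.

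Genes of antigen processing and MHC class I had mostly higher means after 3 days. Of 17 genes, 13 were higher and 4 lower, with a median of 0.60 against -0.04 for all genes. The groups did not overlap for 6 genes in the higher direction and for 3 in the lower, H2-Q4 among them. The shares of all genes were 16.6% and 21.3%. Tap2, a chain of the peptide transporter, measured -0.21 and 0.14 on the control arrays and 1.68 and 1.70 on the GHCre arrays (difference 1.72, SE 0.41), and 1.66 (control) and 0.28 (GHCre) after 10 days. B2m, the light chain of MHC class I, gave 5.38 and 4.71 against 6.14 and 5.54 and H2-K1 5.92 and 5.18 against 6.80 and 6.27, with differences of 0.79 (SE 0.51) and 0.99 (SE 0.51); H2-Q4 ran the other way with -0.74 (SE 0.45). At an unadjusted p under 0.05 there was 1 of 17, Tap2, beside 6.6% of all genes, and none passed the adjusted threshold.

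In the list of interferon signalling, 21 of 22 genes had a higher mean in GHCre after 3 days and 15 did not overlap, all in the higher direction, with a median of 0.87. The share of all genes that did not overlap in that direction was 16.6%. At an unadjusted p under 0.05 there were 4, beside 6.6% of all genes, and none passed the adjusted threshold. These counts include Ifnb1, which entered the test only through the GHCre arrays on which it was above background, and Tyk2, which was above background on 1 GHCre array of 3 days and on the 10 day control. Irf8 measured -0.82 and 0.43 on the control arrays and 1.79 and 1.98 on the GHCre arrays (difference 2.08, SE 0.59), and Cxcl10, an interferon-induced chemokine, 2.17 and 0.96 against 4.39 and 3.16 (difference 2.20, SE 0.72). Ifnb1 was below background on both controls and at least 7.21-fold higher in GHCre. Irf1, a direct activator of Psmb8, Psmb9 and Psmb10, was at 5.82 and 5.43 against 6.75 and 6.36 (difference 0.93, SE 0.44), while Ifng differed by 0.06. After 10 days the medians of the 3 lists were 0.11, 0.21 and 0.12.

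Cells of the immune system carry immunoproteasomes of their own, so markers of leukocytes were read beside the inducible genes. After 3 days 14 of 18 tested leukocyte markers were higher in GHCre and 4 lower, with a median of 0.69, and after 10 days 13 were higher and 5 lower, with a median of 0.39. Their summed linear level ran the other way after 3 days, 252.3 and 232.7 on the control arrays against 202.8 and 201.4 in GHCre, and was 221.7 and 221.4 after 10 days. Itgam gave 63.1% to 76.6% of this sum and Csf1r 9.02% to 12.1%, and both were among the 4 lower markers. These are shares of probe signal and not of RNA, so bright probes weigh most in the sum. Without this pair, left out after the values were seen, the sum was 28.6 and 46.4 on the controls and 55.4 and 52.9 on the GHCre arrays of 3 days, and 31.3 and 50.7 after 10 days. Leaving out markers that were lower in GHCre tilts the 3 day sum towards GHCre by its choice. The reduced sum is therefore no measure of leukocyte content. The B cell markers Cd79b and Ms4a1 were not above background on any array, while the T cell marker Cd3e stood at 2.32 and 2.46 on the control arrays and 3.19 and 3.34 in GHCre. Endothelial markers were higher in 4 of 5 cases after 3 days (median 0.52), with sums of 4.37 and 3.92 against 6.34 and 5.18. Of 7 tested markers of pituitary stem cells, 6 were higher and 1 lower after 3 days (median 0.98). Of all 21073 genes, 10110 were higher. Krt8 was among the 6 (difference 1.63, SE 0.55), and so was Aqp3, below background on both controls and at least 21.5-fold higher in GHCre. Aqp3 entered the test only through the 3 day GHCre arrays, on which it was above background. The sums over the listed markers were 14.5 and 10.6 against 20.3 and 16.1. After 10 days 4 of the 7 were higher and 3 lower, with sums of 13.7 and 10.8. The part of these cells in the values of the inducible genes was not tested.

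Upstream sequence was searched for letters through which interferon and stress are known to act on genes of this kind. Promoter windows of 250 bases before to 50 bases after the start, from RefSeq on GRCm38.p6, were found for 39 of the 47 members (42 windows). The interferon-stimulated element was searched as GAAANNGAAA, the antioxidant element of Nfe2l2 as TGACNNNGC and the NF-kappaB element as GGGNNTTTCC, each on both strands. They were present in 3.44%, 12.4% and 1.63% of all 32851 windows. Among members the first was found in 4 genes (Psmb3, Psmd4, Psmd9 and Psme1), the second in 6 (Psmb5, Psmb6, Psmc6, Psmd9, Psmd12 and Psme4) and the third in none. In Psme1 the letters were TTTCGCTTTC, at base 9 after the start. A match is a description of letters and not a site of binding, and a window without one says only that these letters are not in it.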

How the data were processed

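RNA of 6 sorts was hybridised in 1 colour (Cy3), 1 array per sample. Scanner output was made by the authors in Agilent Feature Extraction (version 10.7.3.1, per the file headers); its processed signal, an intensity with background already subtracted, is deposited without scaling across arrays. The log2 values of the deposited series table match quantile normalized signal (correlation at least 0.9999). Groups follow the titles, genotype and treatment fields; some free-text descriptions disagree with them.

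Unflagged spots of a probe were averaged as log2 values, each array was scaled to its 75th percentile, and the brightest probe stood for a gene. Genes above background on at least 2 arrays were fitted with limma 3.58.1 (R 4.3.3), a mean per group on all 6 arrays, with Benjamini-Hochberg adjustment over 21073 genes and a threshold of 0.05. The 2 residual degrees of freedom come from the 3 day arrays. Folds written as "at least" set a group below background on every array to the lowest signal above background there.

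The members and lists were chosen with earlier results of these data known. Named were the inducible genes, their counterparts, the activators, inhibitor and chaperones, the 3 members in each direction of lowest p per genotype comparison and for the change between days, members whose probes disagree, undetected members, and 4 genes per neighbouring list; Psma1, Psmc3, Irf1, Ifng and single markers were added after their values were seen. A further promoter motif and single genes are not reported here. The fit was tested on simulated data. Figures were drawn with matplotlib 3.10.9.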

Additional observations from a re-analysis of the deposited data

How the results depend on the processing

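Across quantile normalization, normexp correction, the series table, other filters, other probe rules, an intensity trend, blocks and each 3 day array left out, 0 genes and 0 members passed the threshold in any of the 5 comparisons. Of 511 values of named members, 486 kept their direction and 25 turned, in 12 of 38 results, and the cause was not tested. Part of the 486 could not turn. Filters, the intensity trend and the blocks could not change a member's fitted difference. Leaving out a 3 day array could not change a 10 day difference. The count is therefore no measure of how stable the values are. Same-numbered 3 day arrays share a slide but their deviations correlated at only 0.087, so the replicate block, equal after 3 days to the slide as a block, is given here alone: it left the inducible median at 0.45, the constitutive one at 0.02 and every count at 0. The slide as a block could not be fitted for comparisons with the 10 day control. With normexp and the 75th percentile the median of all genes after 3 days was -0.15, without a filter -0.16 and with all 6 arrays required -0.11, against -0.04.

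With normexp and the 75th percentile, the inducible median after 10 days was -0.18, the gap -0.23, the change of the inducible genes -0.70 and the constitutive median after 3 days 0.13; with normexp and quantile normalization these were -0.22, -0.22, -0.68 and 0.094. Psme2 became 0.72 and 0.66 after 3 days and -0.28 and -0.35 after 10 days under these 2 settings. With the mean of all probes, the inducible median after 10 days was -0.20 and the gap -0.22, Psmb5, Psmb9 and Psmd9 after 3 days were 0.029, 0.50 and 0.34, and Psme2 and Psmg1 after 10 days -0.29 and 0.015. Psmd9 after 10 days was 0.041 under quantile normalization, 0.033 under normexp with it and 0.027 in the series table; under quantile normalization the constitutive change was -0.16. With Psmb5, Psmb6 and Psmb7 alone as the constitutive set, its median was 0.20 after 3 and 0.51 after 10 days and its change 0.29.

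With each 3 day array left out in turn, the inducible median ran from -0.12 to 0.74, the constitutive one from 0.0079 to 0.10, the gap from -0.14 to 0.65, the inducible change from -0.51 to 0.82 and the constitutive change from -0.17 to 0.022. After 3 days Psmb6 ran from -0.21 to 0.69, Psmb7 from -0.090 to 0.48, Psmb9 from -1.13 to 1.01, Psmd9 from -0.42 to 0.15, Psme1 from -0.12 to 1.02, Psme2 from -0.70 to 0.47, Psme4 from -0.58 to 0.98 and Psmg1 from -1.83 to 0.83. Psmb8, Psmb10, Psmb2, Psmd13, Psmg3 and Psmf1 kept their direction after 3 days in every setting run. Arrays give no counts, and their number limits the precision.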

Other observations

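A pair of cap subunits had a difference with time in the same direction in both genotypes; they were singled out after their values were seen. Psmd11 stood at 0.20 and 0.15 in the 3 day controls, at -0.20 and -0.32 in the 3 day GHCre arrays, and at 1.25 and 0.91 in the control and GHCre arrays of 10 days. The difference of 10 minus 3 days was 1.08 (SE 0.49) in the controls and 1.17 (SE 0.49) in GHCre. Psmd12 ran the other way, from 2.17 and 1.96 in the 3 day controls and 2.10 and 1.92 in the 3 day GHCre arrays to 1.08 and 0.99 after 10 days, with differences of -0.98 and -1.02 (SE 0.50 in both). In the controls, time and slide cannot be told apart. Within slide 3 the GHCre difference was 1.23 for Psmd11 and -0.93 for Psmd12. Another Psmd12 probe gave -0.90 in the controls but -0.27 in GHCre. On the probes used, for both genes each 10 day array lay outside the range of the 4 arrays of 3 days, and neither passed the threshold in the limma fit.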
